A study of Mus musculus with 56 samples.

Results

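SINEs (short interspersed nuclear elements) are short, non-autonomous retrotransposons, and the regions described here are those SINE copies at which the NF-κB subunit p65 was detected by chromatin immunoprecipitation sequencing (ChIP-seq) in mouse bone marrow-derived macrophages (BMDMs). A p65 peak was taken as a SINE peak when its detailed repeat annotation named the SINE class. Of 169359 p65 peaks in 8 peak lists, 4901 (2.89%) lay in SINEs. Overlapping SINE peaks were merged into 2401 regions, of which 1265 occurred in a single list and were set aside. The remaining 1136 regions, with a SINE peak in 2 or more of the 8 lists, are called SINE regions below. They made up part of 37564 p65 regions with any peak in 2 or more lists. The rule is stricter for SINE regions, of which 767 had peaks in 4 or more lists, against 21109 of the 37564.

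The p65 experiment comprised 4 groups of 2 samples. All cells were wild-type BMDMs from mice of 8 to 12 weeks, differentiated for 6 days in medium with L929 supernatant, and fixed with DSG and formaldehyde. The groups were untreated cells (ctrl/ctrl), cells pretreated with IL-4 at 20 ng/ml for 24 hr (IL-4 PT/ctrl), cells given LPS at 100 ng/ml for 1 hr (ctrl/LPS), and cells given IL-4 for 24 hr and then LPS for 1 hr (IL-4 PT/LPS). The whole series held 56 peak lists for 9 antibodies, and the comparison asks how alternative polarization by IL-4 alters the inflammatory p65 response. The BMDMs were cultures of bulk cells, so a stronger peak in fewer cells and a weaker peak in more cells cannot be told apart. In the ctrl/ctrl samples, 6 of 8 macrophage marker genes carried peaks of elongating or initiating RNA polymerase II in each list. None was annotated to Adgre1 or Spi1. Of 13 markers of other blood and stromal cells, 4 carried such peaks in each list (Flt3, Klrb1c, Ms4a1 and Pecam1), and S100a8 did in 1 list. Cd3e, Epcam and Col1a1 were among those without a peak.

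LPS, sensed by TLR4, releases p65 from its cytoplasmic inhibitors, and NF-κB dimers then enter the nucleus and bind κB sequences, often at enhancers opened by PU.1 and AP-1. IL-4 acts through STAT6 and drives the alternative macrophage state. Mouse SINEs fall into several families with different origins. The B1 elements and their proto-forms (PB1, annotated as the Alu family) derive from the RNA of the signal recognition particle, B2 elements (B3 among them) and ID elements derive from tRNA or tRNA-like genes, B4 elements join ID-like and B1-like parts, and MIR elements are ancient copies shared across mammals. Many of these elements were transcribed by RNA polymerase III from an internal promoter with an A box and a B box.

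The sequences at several SINE regions show what p65 regions annotated to these elements contain. The boundaries of the repeats were not used, so whether a match lies inside the copy was not tested. The first set was taken from named regions whose central 200 bases held a κB sequence, and shows up to 45 bases on each side of it within that window. Capitals mark the letters that match GGNNTTTCC on either strand. All are plus-strand sequences of the mouse genome (GRCm38, the NCBI copy of mm10), written 5′ to 3′.
Phf15, MIRb, chr11:51833593-51833691, intronic: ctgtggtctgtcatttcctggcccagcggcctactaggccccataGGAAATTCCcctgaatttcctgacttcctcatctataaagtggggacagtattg
Atox1, MIR3, chr11:55453799-55453888, intronic: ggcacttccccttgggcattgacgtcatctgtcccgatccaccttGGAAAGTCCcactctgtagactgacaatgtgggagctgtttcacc
Notch2, B3, chr3:98066789-98066848, intronic: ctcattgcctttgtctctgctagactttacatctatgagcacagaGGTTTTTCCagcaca
Fnbp1, PB1D7, chr2:31084513-31084611, intronic: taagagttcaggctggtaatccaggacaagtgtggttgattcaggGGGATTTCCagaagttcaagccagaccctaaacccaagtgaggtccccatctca
4930539M17Rik, PB1D10, chr3:9137885-9137983, intergenic: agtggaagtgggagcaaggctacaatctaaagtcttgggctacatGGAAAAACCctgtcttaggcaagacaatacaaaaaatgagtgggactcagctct
Arg1, B4, chr10:24955602-24955700, intergenic: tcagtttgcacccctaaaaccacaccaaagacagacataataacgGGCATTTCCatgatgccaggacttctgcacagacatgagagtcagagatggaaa
These 6 matches were at regions annotated to 4 families and no 2 of them had the same 9 letters in the orientation printed, although those of Notch2 and 4930539M17Rik are the same letters read on opposite strands.

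The second set comes from the B2 family, in which the AP-1 sequence was frequent, and was chosen after the values had been seen. Capitals mark TGACTCA, with 30 bases on each side, written 5′ to 3′ on the strand that reads TGACTCA.
Fosl2, B2_Mm1t, chr5:31936134-31936200, plus strand: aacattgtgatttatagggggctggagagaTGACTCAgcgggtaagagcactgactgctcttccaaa
Fosl2, B2_Mm1t, chr5:31936203-31936269, plus strand: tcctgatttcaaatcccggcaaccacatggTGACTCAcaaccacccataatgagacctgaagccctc
Sec24d, B3, chr3:123256910-123256976, minus strand: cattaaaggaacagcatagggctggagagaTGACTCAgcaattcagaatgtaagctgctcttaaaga
Wasf2, B3A, chr4:133169807-133169873, minus strand: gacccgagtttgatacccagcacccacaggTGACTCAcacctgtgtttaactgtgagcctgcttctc
Kat6a, B3, chr8:22873469-22873535, minus strand: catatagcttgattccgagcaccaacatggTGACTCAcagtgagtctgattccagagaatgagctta
The Fosl2 region carried both contexts in which the AP-1 letters recurred, ATGACTCAG at the first position and GTGACTCAC at the second. Fosl2 encodes an AP-1 subunit (Fra-2), although the region lies 200 kb from its annotated start, in an intron of another transcript.

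The 1136 SINE regions were spread over 4 large families and 3 small ones. MIR elements accounted for 321 regions, Alu (B1) for 305, B4 for 303 and B2 for 167, and the rest were ID (25), Deu (12) and tRNA (3) elements. By repeat name, MIRb (106), MIR (92), B4A (89), ID_B1 (88), B3 (86), RSINE1 (74) and MIR3 (71) were the most frequent. At 69 regions the lists gave different repeat names, so the name is uncertain. At 515 regions every list with a peak annotated it to a SINE, and at the others some lists annotated the peak to something else. The scores of a region, also of a named one, include such peaks.

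SINE regions were distal largely because of how peaks are annotated. Of the 1136 regions, 613 (54.0%) were intronic, against 51.2% of the 31050 other intronic and intergenic p65 regions, which are called other distal regions and serve as the comparison throughout, because promoter and exon annotations take precedence over repeats. In the peak lists themselves, the intronic share was 54.2% ± 1.85 for SINE peaks and 50.1% ± 0.923 for other distal peaks (SD, n = 8). It was higher in 8 of 8 lists (exact sign-flip permutation test, two-sided, p = 0.00781, the smallest it can give, adjusted p = 0.0195 over 10 comparisons). The lists share many regions, so this test covers the spread between lists and not between elements. The median SINE region lay 18.1 kb from the annotated start and the median other distal region 24.6 kb, and 33.3% against 27.5% lay within 10 kb. SINE regions had a median width of 387 bp against 428 bp, and were annotated to 1044 genes.

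LPS was accompanied by more p65 peaks in SINEs in step with all p65 peaks. Of the 1136 SINE regions, the ctrl/ctrl samples had a peak at 330 and 343, and the IL-4 PT/ctrl samples at 371 and 357. With LPS, the ctrl/LPS samples had a peak at 807 and 798, and the IL-4 PT/LPS samples at 1010 and 1047. All LPS samples lay above all samples without LPS, and the pretreated LPS samples above the LPS samples without pretreatment. The total number of p65 peaks moved in the same order, with 9706 and 9556 peaks in ctrl/ctrl, 11026 and 10253 in IL-4 PT/ctrl, 26305 and 26820 in ctrl/LPS, and 36738 and 38955 in IL-4 PT/LPS. The reads were not used here, so the depth behind these totals is unknown, and a deeper or better enriched library gives more peaks and higher scores.

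SINE peaks held a similar share of each list. That share was 2.85% and 2.93% in ctrl/ctrl, 2.51% and 2.90% in IL-4 PT/ctrl, 2.90% and 2.74% in ctrl/LPS, and 3.01% and 2.99% in IL-4 PT/LPS. The 95% Wilson interval ran from 2.24% to 2.82% for the lowest list and from 2.84% to 3.19% for the highest, and covers counting error only. With LPS the mean was 2.91% ± 0.121 and without it 2.80% ± 0.193 (SD, n = 4 each), a difference of 0.113 percentage points that was smaller than the spread between samples (exact permutation test, two-sided, p = 0.429, adjusted p = 0.483 over 9 comparisons of shares). In the same lists the share of LTR retrotransposons was 5.73% without and 7.90% with LPS, and that of LINEs 4.74% and 6.11% (exact permutation test, p = 0.0286 each, the smallest possible for 4 against 4, adjusted p = 0.0858). Whether the SINE share differed from these in its LPS change was not tested. Within a pretreatment, 2 samples against 2 cannot give an exact p under 0.33.

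**Figure D1:**
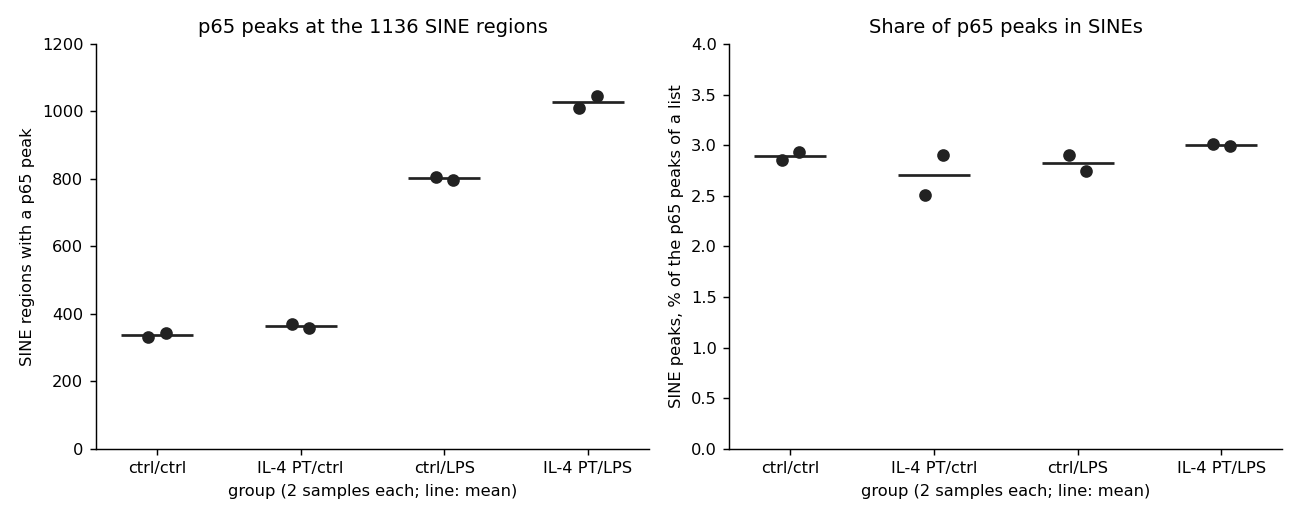
Number of SINE regions with a p65 peak (left, of 1136) and SINE peaks as a percentage of all p65 peaks (right) in each of the 4 groups, with points for the 2 samples and a line for their mean. The counts in the LPS samples (798 to 1047) all lie above those without LPS (330 to 371), while the share stays between 2.51% and 3.01%.

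Resting p65 peaks in SINEs were rich in Alu elements. In the 2 ctrl/ctrl lists, 41.2% (95% Wilson interval 35.5 to 47.0%) and 42.1% (36.5 to 48.0%) of SINE peaks were Alu copies. The share was 25.6% and 30.6% in IL-4 PT/ctrl, 25.4% and 26.2% in ctrl/LPS, and 26.7% and 26.8% in IL-4 PT/LPS, so both ctrl/ctrl lists stood apart from the other 6. They also had the highest Alu share of all 56 lists, where the other antibodies gave 15.0 to 36.3%. Because only ctrl/ctrl was high, the pooled LPS comparison (26.3% ± 0.616 with and 34.9% ± 8.08 without LPS, SD, n = 4 each) did not pass (exact permutation p = 0.114, adjusted p = 0.257).

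The youngest B1 subfamilies followed the same order. B1_Mm, B1_Mus1 and B1_Mus2 together made up 13.0% and 13.6% of SINE peaks in ctrl/ctrl, 7.58% and 7.74% in IL-4 PT/ctrl, 4.59% and 5.57% in ctrl/LPS, and 5.06% and 5.67% in IL-4 PT/LPS. The only other list in the series above 10.1% was p300, untreated replicate 1, at 10.9%, whereas its replicate 2 had 3.42%. That p300 list overlapped 89.8% of the 59 SINE regions with these names, and its replicate 45.8%. Reads from near-identical copies can align to several places and the study states no filter on mapping quality, so values at single young copies are uncertain.

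B4 elements had the opposite order, although the adjusted p did not pass 0.05. They made up 22.2% ± 1.89 of SINE peaks without LPS and 26.7% ± 1.31 with LPS (SD, n = 4 each), and all 4 LPS lists were above all 4 others (exact permutation p = 0.0286, adjusted p = 0.0858 over 9). The MIR share was 24.7% ± 4.50 without and 27.2% ± 1.28 with LPS (exact p = 0.286), and the B2 share 14.0% ± 3.90 and 15.9% ± 0.502 (exact p = 0.343), so neither differed beyond the spread between samples. The ID share was 2.65% ± 1.31 and 2.42% ± 0.135 (exact p = 0.800).

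**Figure D2:**
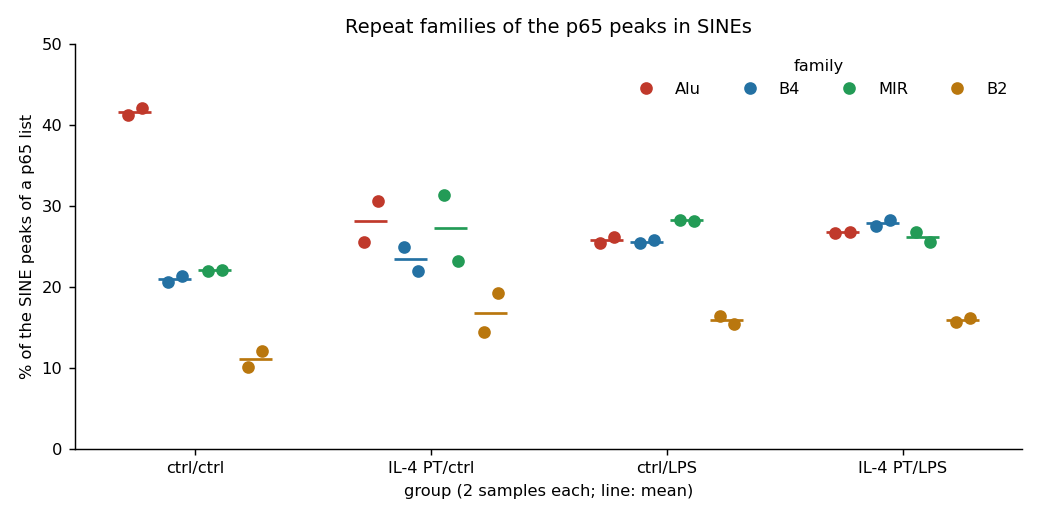
Percentage of the SINE peaks of each p65 list that lie in Alu, B4, MIR and B2 elements, by group, with points for the 2 samples and a line for the mean. Alu stands at 41.2% and 42.1% in ctrl/ctrl and between 25.4% and 30.6% in the other 6 lists.

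Peak scores at SINEs were slightly below those of other distal peaks in most lists. A score is −log10 of the peak caller's p- or q-value, which the files do not distinguish. The median score of SINE peaks was 6.87 and 7.68 in ctrl/ctrl, 6.43 and 6.70 in IL-4 PT/ctrl, 7.65 and 8.43 in ctrl/LPS, and 8.68 and 8.88 in IL-4 PT/LPS. The corresponding medians of other distal peaks were 7.06 and 7.45, 6.62 and 6.64, 9.32 and 9.32, and 9.88 and 9.93. Every LPS list had the lower median at SINEs, and 2 lists without LPS had the higher one. Over the 8 lists the log2 ratio of medians was -0.100 ± 0.112 (SD), which did not pass (exact sign-flip permutation p = 0.0625, adjusted p = 0.0893), though it reached an unadjusted exact p of 0.0312 without ctrl/ctrl replicate 2, at -0.121.

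At the 133 SINE regions with a peak in all 8 lists, levels could be compared without missing values. Their median score was 13.8 and 13.0 in ctrl/ctrl, 10.7 and 11.5 in IL-4 PT/ctrl, 26.1 and 26.6 in ctrl/LPS, and 27.7 and 26.5 in IL-4 PT/LPS. The 3231 other distal regions in all 8 lists had 12.4 and 12.6, 11.4 and 10.5, 26.6 and 27.1, and 31.8 and 33.6. Median scores thus were higher in every LPS list in both sets, before any scaling. Families differed in this respect. The 42 MIR regions had median scores of 8.46 to 9.46 in the 4 lists without LPS and of 31.6 to 35.6 in the 4 LPS lists. The 25 B4 regions had 15.4 to 20.7 and 33.1 to 39.3, and the 13 B2 regions 9.09 to 11.1 and 18 to 24.6. The 46 Alu regions overlapped between conditions, with 10.7 to 18 without LPS and 14.2 to 21.0 with LPS.

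The change at each region was then tested with limma across all 37564 regions. Each list was first centred on the 3965 regions with a peak in all 8 lists, which removed a shift of 1.05 on the log2 scale between ctrl/LPS and ctrl/ctrl and of 0.27 between IL-4 PT/LPS and ctrl/LPS. Changes are therefore relative to regions with a peak in every list. They are changes in peak score, not in read counts, so they are not fold changes in binding. A region without a peak in a list received the lowest centred score, so a change against a group without peaks depends on that floor. The standard error (SE) of such a change is too small because the floor has no spread between replicates. A region entered the fit only with peaks in 2 lists, so a region seen in the 2 lists of a single group could differ in 1 direction only. Such regions are described by their scores, without a test. Regions with both peaks of 1 group and 1 further peak elsewhere also entered only through that group. The selection favours 1 direction there too, and these regions were not set apart in the counts. The labels do not say whether replicates were separate animals, and p-values measure only the spread between these samples.

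With LPS, 385 of 1136 SINE regions (33.9%) had higher p65 scores in ctrl/LPS than in ctrl/ctrl, and 66 (5.81%) had lower scores (limma adjusted p of at most 0.05). Over all 37564 regions, 29.8% were higher and 3.26% lower. The median change was 1.17 (log2) for SINE regions and 1.07 for all. Of the 385, 351 (91.2%) had no peak in either ctrl/ctrl list, so most of these calls are gains of a peak. The selection fixed the direction of 18 of the 385, seen only in both ctrl/LPS lists. It also fixed that of 5 of the 66, seen only in both ctrl/ctrl lists. This left 367 higher and 61 lower. These still include regions with 1 further peak that entered only through the higher group, such as Il18 (higher with LPS) and Cacng2 (lower). When missing peaks were filled before centring, 345 SINE regions (30.4%) were higher and 216 (19%) lower, against 26.9% and 19.8% of all regions, so the share of lower calls no longer exceeded that of all regions. Under quantile normalization, which forces the lists to one distribution, the split turned to 155 higher and 202 lower SINE regions (12.8% and 17.2% of all regions), with medians of -0.14 for SINE and -0.19 for all regions.

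The families separated in the LPS comparison. Among MIR regions, 130 of 321 were higher and 2 lower, with a median change of 1.66. B4 had 110 of 303 higher and 14 lower (median 1.20), and B2 50 of 167 higher and 7 lower (median 1.14). Alu regions had 77 of 305 higher and 40 lower, with a median of 0.40 that turned negative under quantile normalization (-0.40) or when missing peaks were filled before centring (-0.19). The medians of B4 (-0.13) and B2 (-0.18) also turned negative under quantile normalization, whereas MIR stayed at 0.15. The 59 B1_Mm, B1_Mus1 and B1_Mus2 regions had 7 higher and 14 lower, with a median of -1.15, and -0.38 without centring, where 15 were higher and 7 lower. Without ctrl/ctrl replicate 2 their median was 0.00. The order of the families was not itself tested.

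Presence and absence of peaks were also counted without any score. Peaks in both ctrl/LPS lists and neither ctrl/ctrl list occurred at 396 SINE regions (34.9%, against 33.7% of other distal regions). The reverse pattern, with peaks in both ctrl/ctrl lists and neither ctrl/LPS list, occurred at 26 SINE regions (2.29%, against 1.07%). Of these 26, 18 were Alu regions, 5 were B4, 2 were B2, 1 was ID and none was MIR. At the 18 Alu regions, 10 also had an IL-4 PT/ctrl peak and 13 an IL-4 PT/LPS peak, so most did not lack p65 in every LPS list. Their mean ctrl/ctrl scores ran from 4.71 to 19.7 with a median of 9.17. Untreated p300 replicate 1 had a peak at 15 of the 18 and replicate 2 at 4, while each untreated PU.1 list had a peak at 5.

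**Figure D3:**
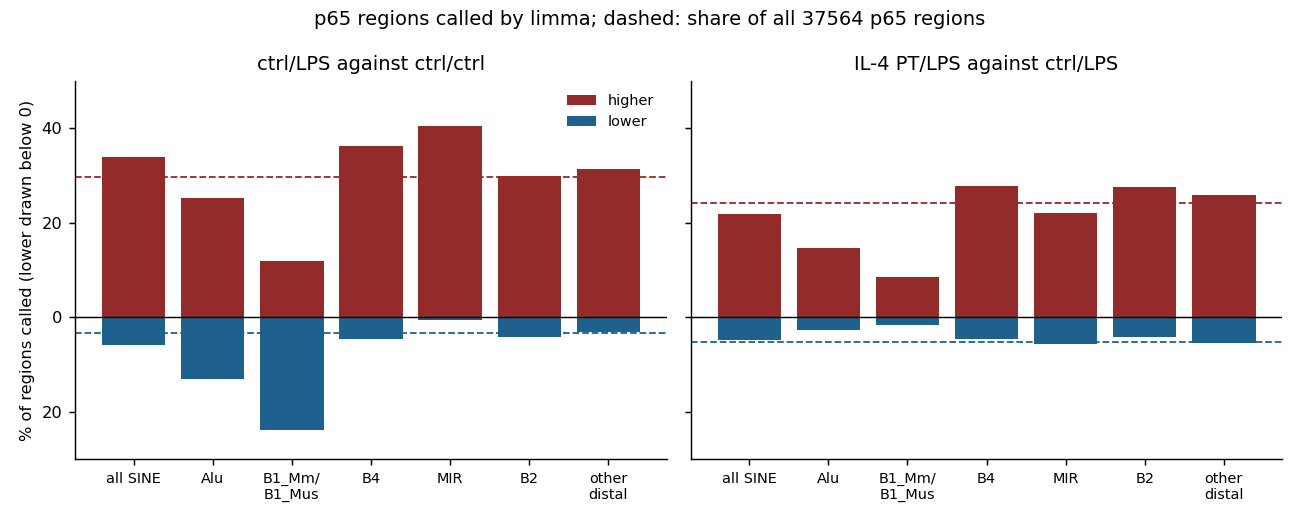
Percentage of regions called higher (drawn above 0) and lower (drawn below 0) by limma in ctrl/LPS against ctrl/ctrl (left) and IL-4 PT/LPS against ctrl/LPS (right), for all SINE regions, SINE families and other distal regions, with dashed lines for all 37564 regions. In the left panel lower calls are most frequent in B1_Mm and B1_Mus (23.7%) and Alu (13.1%) and least frequent in MIR (0.623%). Both panels include regions seen in the lists of a single group, whose direction the selection fixed.

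The regions with the largest LPS gains were in B2-, B4- and MIR-family copies. The strongest was a B3 element in an intron of Notch2, which encodes a Notch receptor, 53.2 kb from its start. It had no peak in ctrl/ctrl, scores of 5.49 and 5.11 in IL-4 PT/ctrl, 62.21 and 66.31 in ctrl/LPS, and 105.36 and 122.23 in IL-4 PT/LPS. The fitted change was 5.92 ± 0.14 (log2, SE, limma adjusted p = 5.40e-05). The score was also higher with pretreatment, both before LPS (3.56, limma adjusted p = 4.24e-04) and after it (0.55 ± 0.14, adjusted p = 0.0363). The κB letters at this region are printed above.

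A B4 element in an intron of Glg1, which encodes a Golgi glycoprotein, took another course. It had scores of 50.22 and 44.29 in ctrl/LPS, 10.19 and 13.75 in IL-4 PT/LPS, and none without LPS. The LPS change was 5.48 ± 0.18 (limma adjusted p = 5.41e-05), and pretreatment lowered the LPS level by a log2 change of -2.26 ± 0.18 (adjusted p = 5.11e-04). A RSINE1 copy in an intron of Thada behaved alike, with 33.41 and 45.51 in ctrl/LPS, 18.84 and 18.54 in IL-4 PT/LPS, and none without LPS (pretreatment change -1.33 ± 0.19, adjusted p = 0.00460). A MIRb copy 1.95 kb from Ssh2, a cofilin phosphatase gene, had 37.81 and 39.45 in ctrl/LPS and 17.98 and 30.68 in IL-4 PT/LPS (-0.99 ± 0.25, adjusted p = 0.0396). At these 3 regions the pretreated LPS samples lay below the LPS samples without pretreatment and the groups did not overlap.

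The other 2 regions of this group did not pass the threshold between the LPS groups. A B3 copy 3.50 kb from B4galt5, a galactosyltransferase gene, had no ctrl/ctrl peak, 3.73 and 5.71 in IL-4 PT/ctrl, 38.32 and 52.6 in ctrl/LPS, and 36.32 and 46.76 in IL-4 PT/LPS. Of the 6 lists with a peak there, 3 placed it in a SINE. A MIRc copy 67.5 kb from 4921509O07Rik had 54.21 and 44.45 in ctrl/LPS, 53.82 and 53.42 in IL-4 PT/LPS, and 7.54 in 1 IL-4 PT/ctrl sample only. Their pretreatment changes after LPS were -0.39 ± 0.31 (limma adjusted p = 0.459) and -0.14 ± 1.27 (adjusted p = 0.980). The LPS call of 4921509O07Rik was lost in limma without any 1 sample of ctrl/ctrl, ctrl/LPS or IL-4 PT/LPS (adjusted p = 0.0891 to 0.118).

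Loss of p65 peaks with LPS was led by B1-type copies. The largest was a B1F1 element 36.8 kb from Naa20, which encodes a subunit of an N-terminal acetyltransferase. It had scores of 22.68 and 16.67 in ctrl/ctrl, 11.07 and 18.84 in IL-4 PT/ctrl, no peak in ctrl/LPS, and 11.46 and 13.38 in IL-4 PT/LPS. The LPS change was -5.24 ± 0.34 (limma adjusted p = 1.96e-04) and the pretreatment change after LPS 3.28 ± 0.34 (adjusted p = 0.00127). A PB1 copy 226 kb from Etl4 had 9.91 and 10.95, 7.9 and 9.31, none, and 8.01 and 7.7 in the same order of groups. At both regions the ctrl/LPS samples alone lacked a peak.

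The other 4 losses were a B1F1 copy in an intron of Lrrk1, a kinase gene (-4.89), a PB1D11 copy in an intron of Cacng2 (-4.59), the PB1D7 copy in an intron of Fnbp1 (-4.59), which encodes an F-BAR protein, and an ID_B1 copy near Fbxl22 (-4.35). Fnbp1 had scores of 11.16 and 13.66 in ctrl/ctrl, 11.22 and 4.64 in IL-4 PT/ctrl, none in ctrl/LPS, and 4.79 in 1 IL-4 PT/LPS sample. Its sequence, printed above, holds GGGATTTCC. Cacng2, with 1 further peak in IL-4 PT/LPS, entered only through ctrl/ctrl. The limma call of Cacng2 was lost without any 1 ctrl/ctrl or ctrl/LPS sample (adjusted p = 0.0715 to 0.0955) and that of Lrrk1 without ctrl/ctrl replicate 2 or either ctrl/LPS sample (adjusted p = 0.0574 to 0.0635). With the upper 50% of peaks by score, Lrrk1 (adjusted p = 0.0572) and Fnbp1 (adjusted p = 0.0777) were not called by limma. None of the 6 lost regions had an RNA polymerase II peak phosphorylated at serine 5 (RNAPII-pS5) in any of the 8 lists, except Lrrk1, with 1 ctrl/ctrl list.

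Between IL-4 PT/LPS and ctrl/LPS, 249 SINE regions (21.9%) were called higher after pretreatment and 54 (4.75%) lower. Over all regions, 24.2% were higher and 5.26% lower, and the median change was 0.39 for SINE regions and 0.42 for all. Of the 249, 160 (64.3%) had no peak in ctrl/LPS. Of these calls, 144 of the 249 were at regions seen only in both IL-4 PT/LPS lists and 18 of the 54 at regions seen only in both ctrl/LPS lists. The selection fixed their direction, which left 105 higher and 36 lower. The 36 still include regions with 1 further peak, such as Gm9961 and Gm8817, which entered only through ctrl/LPS. Among the 767 SINE regions with peaks in 4 or more lists, 42 (5.48%) were higher and 10 (1.3%) lower, against 4.82% and 1.61% of all such regions. Among the 515 regions annotated to a SINE in every list, 35.0% were higher, which is above the share of all regions, whereas the share of all SINE regions is below it. A region with peaks in only 2 lists needed a SINE annotation in both to enter. The 515 are therefore weighted toward regions such as the 144, which could only be higher, and no conclusion is drawn from this share. Without IL-4 PT/LPS replicate 2, 87 SINE regions were lower. Under quantile normalization 136 SINE regions were higher and 91 lower. By family, 84 B4 regions (27.7%) were higher and 14 lower. The counts were 46 (27.5%) and 7 for B2, 71 (22.1%) and 18 for MIR, and 45 (14.8%) and 8 for Alu. The higher calls include regions seen only in both IL-4 PT/LPS lists, which could only be higher. These were 50 of the 84 in B4, 32 of the 46 in B2, 34 of the 71 in MIR and 27 of the 45 in Alu. The 144 regions seen only in both IL-4 PT/LPS lists were 12.7% of SINE regions, and 18.6% of other distal regions had this pattern. The stricter entry rule of SINE regions can lower their share of regions with peaks in only 2 lists, so these shares are not matched.

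A fit of only the regions with a peak in all 8 lists, chosen after seeing the data, gave fewer calls. Of its 133 SINE regions, none passed limma's adjusted threshold in either direction, and 21 had an unadjusted p under 0.05 when IL-4 PT/LPS was compared with ctrl/LPS. In the same 133 regions, 25 (18.8%) were higher and 42 (31.6%) lower in ctrl/LPS than in ctrl/ctrl, against 16.3% and 23.2% of the 3965 regions of this fit. The lists are centred on these same regions, which sets the balance of higher and lower, while the uncentred scores were higher with LPS.

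The regions gained after pretreatment and LPS fell into 2 kinds. At 3 of the 6 with the largest change, a peak was present with IL-4 alone. A MIRb copy 53.1 kb from Artn, which encodes a neurotrophic factor, had 7.46 and 11.25 in IL-4 PT/ctrl, 37.95 and 29.89 in IL-4 PT/LPS, and none in samples without IL-4. A MIRc copy 47.0 kb from Pim1, a serine/threonine kinase gene, had 4.37 and 13.13, and then 28.18 and 19.47. A MIR copy in an intron of Gabbr2, a GABA-B receptor gene, had 4.37 and 9.02, and then 27.2 and 19.87. All 3 were MIR-family copies without a p65 peak in any sample lacking IL-4.

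Their pretreatment changes after LPS were 4.72 ± 0.29 for Artn, 4.20 ± 0.58 for Pim1 and 4.19 ± 0.42 for Gabbr2 (log2, SE). Before LPS they were 4.35, 4.08 and 3.81, all past the limma threshold (adjusted p = 0.00110, 0.0172 and 0.00619). After LPS, the limma call was lost with the upper 50% of peaks for Pim1 (adjusted p = 0.117) and Gabbr2 (adjusted p = 0.0861), and for Pim1 also under quantile normalization (adjusted p = 0.0680). RNAPII-pS5 peaks overlapped each of the 3 regions in both IL-4 PT/ctrl lists and in neither ctrl/ctrl list. In the IL-4 PT/LPS lists, RNAPII-pS5 was found in 2 at Artn and in 1 each at Pim1 and Gabbr2, and in no ctrl/LPS list.

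The other 3 were Alu copies with p65 in IL-4 PT/LPS alone. The PB1D10 copy 76.0 kb from 4930539M17Rik had scores of 23.54 and 37.83 in IL-4 PT/LPS and no peak in the other 6 lists. A B1F copy in an intron of Maml3, a coactivator of Notch, had 26.93 and 20.95, and a B1_Mur1 copy in an intron of Snx8, a sorting nexin gene, had 20.6 and 25.77. Their fitted changes against the floor, by which they were named, were 4.55, 4.22 and 4.17. These 3 regions entered only through IL-4 PT/LPS, so the values are a description.

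Of the 6 regions with the largest fall after pretreatment, 4 were seen in ctrl/LPS alone. They entered only through that group, so their values are a description. A PB1D10 copy in an intron near Ms4a6c, a gene of the MS4A membrane protein family, had 12.74 and 14.5 in ctrl/LPS and no other peak (-3.68 against the floor). An AmnSINE1 copy annotated to B3galt2, 945 kb away, had 14.52 and 11.39 in ctrl/LPS and no other peak (-3.60). A MIR copy 9.79 kb from Tmbim6, a regulator of cell death in the endoplasmic reticulum, had 7.97 and 13.61 (-3.30), and a B3A copy 1.52 kb from Srcrb4d 9.05 and 6.29 (-2.83). ID-family copies near Gm9961 and Gm8817 (-3.12 each) had 14.86 and 13.91, and 19 and 16.59, in ctrl/LPS and a single weak IL-4 PT/LPS peak of 3.18 and 4.62. They too entered only through ctrl/LPS, so the selection favoured a fall. The limma call of Gm8817 was lost without either ctrl/LPS sample (adjusted p = 0.0616 and 0.0731).

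In the absence of LPS, pretreatment changed few SINE regions. Compared with ctrl/ctrl, 57 (5.02%) were higher and 27 (2.38%) lower in IL-4 PT/ctrl, against 3.44% and 2.28% of all regions. B4 (20 higher, 8 lower) and MIR (18 higher, 2 lower) had more regions higher than lower, and Alu had 10 higher and 13 lower. None of the 59 B1_Mm, B1_Mus1 and B1_Mus2 regions was higher and 6 were lower. Most calls were gains or losses of a peak, with 53 of the 57 lacking a peak in ctrl/ctrl. Regions seen only in the lists of 1 of these groups had a fixed direction, and their calls were not counted apart. The lower count was 44 without ctrl/ctrl replicate 1 and 41 without ctrl/ctrl replicate 2.

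In pretreated cells, 536 SINE regions (47.2%) were higher and 52 (4.58%) lower in IL-4 PT/LPS than in IL-4 PT/ctrl. All regions had 49.4% and 3.68%, and this comparison shares its samples with those above. The 144 regions seen only in both IL-4 PT/LPS lists could only be higher here. Regions seen only in both IL-4 PT/ctrl lists could only be lower. Their calls were not counted apart in this comparison, so the counts include directions that the selection fixed. Quantile normalization gave 191 higher and 198 lower. The interaction term, which tests whether the LPS change differed with pretreatment, was called at 281 SINE regions, 204 with a larger and 77 with a smaller log2 change in pretreated cells (18% and 6.78%, against 20.9% and 5.98% of all regions). Of the 204, 140 were seen only in both IL-4 PT/LPS lists and 5 only in both ctrl/ctrl lists, and of the 77, 16 only in both ctrl/LPS lists. Among SINE regions with peaks in 4 or more lists the order turned, with 24 larger (3.13%) and 40 smaller (5.22%), against 3.88% and 3.94% of all such regions. Of the 59 B1_Mm, B1_Mus1 and B1_Mus2 regions, 10 had a larger and none a smaller change. In the fit of regions with a peak in all 8 lists, none of the 133 passed the interaction test in limma, and 26 had an unadjusted p under 0.05.

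The 10 SINE regions with the highest mean centred scores had peaks in all 8 lists. The ranking favours this, because a missing peak counted at the floor. They were annotated to Slc16a10 (RSINE1), Phf15 (MIRb), Atox1 (MIR3), Ypel2 (ID_B1), Atxn7l1 (ID4_), Cacnb4 (B4A), Mcl1 (PB1D11), Eya3 (B4A), Med13l (PB1D9) and Gmfg (MIRb), that is, to 4 B4-, 3 MIR-, 2 Alu- and 1 ID-family copies. All 8 lists placed a peak in a SINE only at Slc16a10, Phf15 and Med13l. At Gmfg 6 lists did, at Atox1 and Atxn7l1 5, at Cacnb4 and Eya3 4, at Ypel2 3 and at Mcl1 2. Their scores therefore include peaks that some lists do not place in a SINE. The highest score among these 10 was at the MIRb copy in Phf15 (Jade2), whose product belongs to histone acetyltransferase complexes. It had 49.06 and 61.36 in ctrl/ctrl, 16.91 and 14.53 in IL-4 PT/ctrl, 158.97 and 169.0 in ctrl/LPS, and 146.98 and 156.57 in IL-4 PT/LPS. IL-4 alone lowered it by a log2 change of -1.61 ± 0.17 (limma adjusted p = 0.00486), and the LPS groups did not differ past the threshold (-0.38 ± 0.17, adjusted p = 0.171). RNAPII-pS5 was present there in all 4 LPS lists and in none without LPS.

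Cacnb4, Atox1 and Mcl1, also among these 10, had other orders of scores. The B4A copy in an intron of Cacnb4 had scores of 59.63 and 58.41, 68.9 and 68.54, 45.74 and 66.44, and 76.0 and 68.59 with the groups in the order used for Phf15, and after centring fell with LPS by 1.14 on the log2 scale (limma adjusted p = 0.0132). The MIR3 copy in an intron of Atox1, a copper chaperone gene, had 48.89 and 45.62, 37.26 and 34.31, 49.53 and 61.44, and 51.72 and 51.38. A PB1D11 copy 7.83 kb from Mcl1, an anti-apoptotic BCL2-family gene, had 23.34 and 22.35, 38.09 and 38.36, 57.96 and 60.41, and 96.73 and 103.7. At Mcl1 both pretreated groups lay above their counterparts, with a change of 0.94 ± 0.14 before LPS (adjusted p = 0.0200) and 0.49 ± 0.14 after it (adjusted p = 0.0525).

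SINE regions made up 0 to 1.90% of the p65 regions at each of the 6 inflammatory gene lists and 4.20% at the IL-4 target genes, against 3.02% of all p65 regions. These differences were not tested. The 10 NF-κB inhibitor and feedback genes had 111 p65 regions, of which 1 was a SINE region, and the 15 inflammatory cytokine genes had 98 with 1. The 5 NF-κB subunit genes had 36 and the 18 effector and surface molecule genes 84, with none. The 13 chemokine genes had 56 with 1, the 15 Toll-like and NOD-like receptor signaling genes 105 with 2, and the 15 IL-4 target genes 119 with 5, at 4 genes. Of these 10 SINE regions, 5 were higher with LPS and none lower, and 4 were higher and none lower with pretreatment after LPS. Those 4 were at Ccl5, Tlr4, Arg1 and Tgm2. The last named, with Tlr4 and Arg1, had peaks in IL-4 PT/LPS alone and could only be higher. Of all 609 p65 regions at these genes, 36.8% were higher and 3.94% lower with LPS, and 25.5% and 6.57% with pretreatment after LPS, beside 29.8% and 3.26%, and 24.2% and 5.26%, of all regions. The 10 regions are too few to set apart from these shares.

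A MIRc copy 5.97 kb from Ccl5, which encodes the chemokine RANTES, was the strongest of them. It had no peak without LPS, scores of 26.99 and 36.14 in ctrl/LPS, and 81.82 and 91.42 in IL-4 PT/LPS. The LPS change was 4.88 ± 0.18 (limma adjusted p = 5.95e-05) and the pretreatment change after LPS 1.20 ± 0.18 (adjusted p = 0.00599). RNAPII-pS5 peaks were found there in all 4 LPS lists and in none without LPS, and both untreated PU.1 lists had a peak.

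Other inflammatory genes had weaker SINE regions. A MIRc copy 2.48 kb from Tnip1, which encodes an inhibitor that binds A20, had no ctrl/ctrl peak, 6.29 and 5.8 with IL-4 alone, 17.07 and 28.61 with LPS alone, and 31.56 and 37.23 with both. A RSINE1 copy in an intron of Nlrp3, the inflammasome sensor gene, had 11.41 and 13.83 in ctrl/LPS and 20.45 and 19.15 in IL-4 PT/LPS, with no peak without LPS. A MIR3 copy in an intron of Il18 had 11.83 and 11.05 in ctrl/LPS and 6.03 in 1 IL-4 PT/LPS sample. It entered only through ctrl/LPS. A B4A copy 56.1 kb from Tlr4, the LPS receptor gene, had 4.26 and 5.46 in IL-4 PT/LPS alone. Tnip1 (4.38), Nlrp3 (3.57) and Il18 (3.43) were higher with LPS, although the limma call of Il18 was lost without any 1 ctrl/ctrl or ctrl/LPS sample (adjusted p = 0.0678 to 0.0850). The change of Tlr4 against the floor was 1.92 and fell to 0.07 with a floor 4 times the lowest score.

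Among IL-4 target genes, Arg1 (arginase) and Tgm2 (transglutaminase) had SINE regions seen in IL-4 PT/LPS alone. The B4 copy 28.2 kb from Arg1 had scores of 7.87 and 5.25, and the MIRb copy in an intron of Tgm2 had 6.13 and 7.37. Both entered only through that group, so no test is given. The fitted change of Arg1 against the floor was 2.33, and it was 0.33 with a floor 4 times the lowest score, 0.42 under quantile normalization and 0.58 with all values raised to the highest detection limit of the 8 lists. That of Tgm2 was 2.40, and 0.44 under quantile normalization. Pparg, a lipid-sensing nuclear receptor gene, had a PB1D10 copy with 12.2 and 8.47 in ctrl/LPS, 11.49 and 7.31 in IL-4 PT/LPS and none without LPS (LPS change 3.26 ± 0.31, limma adjusted p = 7.73e-04), a call that was lost under quantile normalization (adjusted p = 0.0558) and with the upper 50% of peaks (adjusted p = 0.485). It also had a MIR copy of scores between 2.81 and 8.96 in 7 lists, with no call except under quantile normalization, where it was lower with LPS (-1.87, limma adjusted p = 0.0239). The B3 copy near Ccl24 had a peak in 1 sample of each group, and no call.

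A macrophage gene had lower p65 scores at its SINE region with LPS. The B3 copy 19.2 kb from Csf1r, the receptor of the growth factor that sustains macrophages, had 27.97 and 35.63 in ctrl/ctrl, 27.17 and 32.19 in IL-4 PT/ctrl, 15.81 and 12.28 in ctrl/LPS, and 12.28 and 20.04 in IL-4 PT/LPS. Every LPS score was below every score without LPS, and the change was -2.23 ± 0.30 (limma adjusted p = 0.00310). Only 3 of the 8 lists placed a peak of this region in a SINE. Flt3, a gene of progenitors and dendritic cells, had an intronic B3A copy with 10.23 and 7.94 in IL-4 PT/LPS alone.

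RNAPII-pS5, the initiating form of RNA polymerase II and a mark of active enhancers and promoters, was measured in the same 4 groups and played no part in choosing the regions. It overlapped 26.1% and 25.6% of the SINE regions in ctrl/ctrl, 32.7% and 32.7% in IL-4 PT/ctrl, 26.4% and 28.0% in ctrl/LPS, and 28.8% and 29.1% in IL-4 PT/LPS. Other distal regions had 26.7% and 25.2%, 29.2% and 30.3%, 26.3% and 28.0%, and 28.9% and 29.2%. The means were 28.7% ± 2.79 and 28.0% ± 1.74 (SD, n = 8), a difference of 0.724 points that did not pass (exact sign-flip permutation p = 0.320). With a stricter set of 767 SINE regions with peaks in 4 or more lists the difference turned to -3.33 points (exact p = 0.0156).

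The families differed from other distal regions in opposite directions. MIR regions were overlapped by RNAPII-pS5 in 36.4% ± 2.65, which was 8.50 points above other distal regions and higher in 8 of 8 lists. Alu regions were overlapped in 21.1% ± 1.65, a difference of -6.84 points from other distal regions, and lower in 8 of 8 lists. Both gave the smallest exact sign-flip permutation p of 0.00781 (adjusted p = 0.0195 over 10). All these lists were compared over the same regions, so the test covers the spread between samples and not between elements. B4 regions, at 26.9% ± 3.49, and B2 regions, at 26.9% ± 7.01, did not differ past the threshold (exact p = 0.266 and 0.641).

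**Figure D4:**
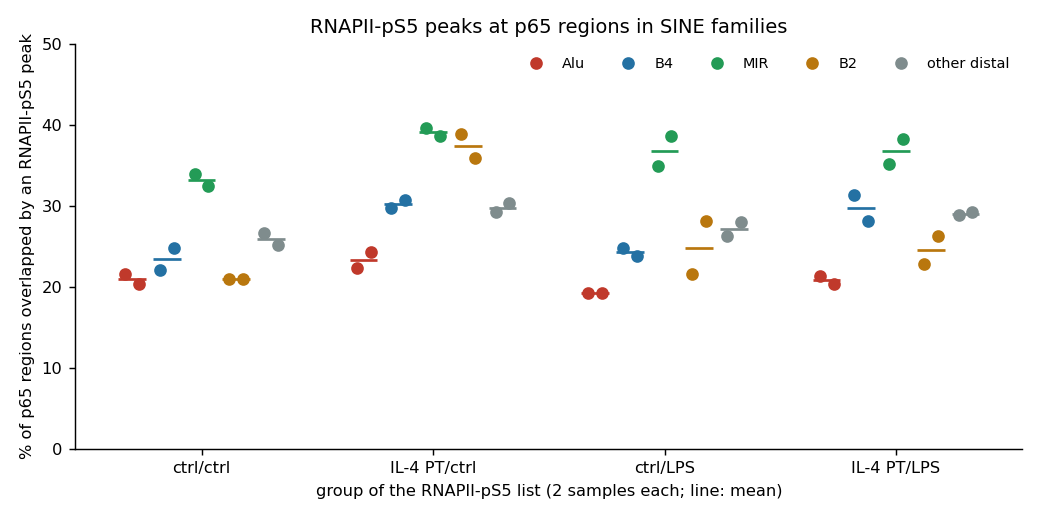
Percentage of p65 regions overlapped by an RNAPII-pS5 peak in each list, for Alu, B4, MIR and B2 regions and other distal regions, by group of the RNAPII-pS5 sample, with points for the 2 samples and a line for the mean. MIR lies above and Alu below other distal regions in all 8 lists, and B2 is highest in IL-4 PT/ctrl (38.9% and 35.9%).

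B2 regions were overlapped most often in IL-4 PT/ctrl. RNAPII-pS5 overlapped 21.0% and 21.0% of the 167 B2 regions in ctrl/ctrl, 38.9% and 35.9% in IL-4 PT/ctrl, 21.6% and 28.1% in ctrl/LPS, and 22.8% and 26.3% in IL-4 PT/LPS. Both pretreated samples without LPS stood above the other 6. The RNAPII-pS5 lists held 20803 and 19279, 21365 and 22149, 14476 and 15349, and 17826 and 18207 peaks in the same order of groups. A longer list can overlap more regions, and the part of list size was not tested. The comparison of 2 samples with 2 cannot pass a threshold of 0.05 and was not tested.

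The comparison with other distal regions depended on the mean p65 score. All distal regions were put into 4 equal bins by mean centred score over the 8 lists. Missing peaks counted at the floor, so regions with peaks in more lists tended to rank higher. In the highest bin, 48.1% ± 1.94 of 336 SINE regions and 57.5% ± 3.15 of other distal regions were overlapped (SD over 8 lists). SINE regions were lower in 8 of 8. Within that bin the mean overlap was 29.5% for Alu, 49.0% for B4, 51.5% for B2 and 60.9% for MIR. The third bin went the other way, with 30.9% for SINE and 28.4% for other distal regions, and SINE regions were lower in 1 of 8 lists. In the second bin the values were 15.2% and 16.1%, and in the lowest 9.94% and 10.3%. The bins were not tested.

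With LPS, the RNAPII-pS5 share at SINE regions was 28.1% ± 1.21, against 29.3% ± 3.97 without LPS (SD, n = 4 each, exact permutation p = 0.514, adjusted p = 0.771 over 6 comparisons). Every RNAPII-pS5 list with LPS held fewer peaks than every list without it, and the part of list size was not tested. The elongating form, RNAPII-pS2, overlapped 54.7% ± 0.535 with and 41.6% ± 3.15 without LPS, an increase of 13.1 points (exact permutation p = 0.0286, adjusted p = 0.0858). Other distal regions had the same increase, from 39.4% ± 1.60 to 52.5% ± 1.70. Over all 8 lists, RNAPII-pS2 overlapped SINE regions 2.16 points more often than other distal regions, in 8 of 8 lists (exact sign-flip permutation p = 0.00781, adjusted p = 0.0195), and the higher intronic share of SINE peaks moved with it. The part of the intronic share in the difference was not tested. As for RNAPII-pS5, the test covers the spread between samples and not between elements.

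In untreated cells of the companion experiment, with 2 samples per antibody, SINE regions as a whole were overlapped as often as other distal regions or more. SINE regions entered by a stricter rule, and overlap by PU.1 and p300 rose with mean p65 score, so the sets are not matched. In the highest bin of mean p65 score PU.1 went the other way, and the replicates of p300 differed in direction. H3K27Ac, HDAC1 and HDAC2 were not put into bins. PU.1, the factor that establishes macrophage enhancers, overlapped 59.2% and 57.7% of SINE regions and 54.8% and 52.1% of other distal regions. The coactivator p300 overlapped 72.4% and 75.1%, against 63.2% and 73.8%, and the active mark H3K27Ac 44.6% and 43.3%, against 39.8% and 39.6%. HDAC1 had 42.8% and 39.3%, against 41.8% and 37.3%, and HDAC2 44.0% and 39.3%, against 39.3% and 36.7%. By family, PU.1 overlapped 69.5% and 66.4% of MIR regions but 47.9% and 47.5% of Alu regions, and 39.0% of the B1_Mm, B1_Mus1 and B1_Mus2 regions in both samples. In the highest of the 4 score bins, PU.1 overlapped 75% and 73.8% of SINE regions, against 81.2% and 79.4% of other distal regions, and p300 91.7% and 85.1%, against 90.1% and 94.7%. These values were not tested.

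The κB sequence was less frequent at SINE regions. GGNNTTTCC, read on both strands in the central 200 bases, occurred at 105 SINE regions (9.24%, 95% Wilson interval 7.69 to 11.1%), 15.9% of other distal regions, 22.5% of LTR and 14.4% of LINE p65 regions, and 15.4% of all p65 regions in the reference. Among families it was found at 12.2% of B4, 11.1% of Alu, 6.85% of MIR and 5.39% of B2 regions. By spelling, GGAGTTTCC (14 of 108 matches, 13.0%) led at SINE regions, followed by GGAATTTCC and GGGATTTCC (12 each), while at other distal regions GGAATTTCC (14.5%) and GGGATTTCC (13.8%) led and GGAGTTTCC made up 8.29%. A window of 300 bases gave 12.1% against 18.5%, and the spelling GGGNNTTTC, which overlaps the first, 7.48% against 10.6%. A window without a match lacks only these letters.

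AP-1 letters (TGANTCA, which reads alike on both strands) were found at 329 SINE regions (29.0%), 24.6% of other distal regions and 22.9% of all p65 regions. B2 regions stood highest at 44.3%, ahead of B4 (29.0%), MIR (25.9%) and Alu (22.3%). Within B2, the letters occurred at 11 of 15 B2_Mm2 regions, 26 of 58 B3A and 33 of 86 B3 regions. RSINE1 (40.5%) in the B4 family and PB1D7 (54.2%) and B1F (42.2%) in the Alu family were also high, whereas none of 17 PB1 and none of 13 B1_Mur3 regions had a match.

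Of the letters flanking AP-1 matches at B2 regions, a pair of contexts made up the majority. Of 98 AP-1 matches in B2 regions, 33 read ATGACTCAG and 26 read GTGACTCAC, together 60.2%, against 14.5% of 8740 matches at other distal regions. These are the contexts shown in the Fosl2, Sec24d, Wasf2 and Kat6a sequences. Copies of one family share their ancestral sequence, so these matches may not be independent. The Fosl2 region had scores of 20.73 and 38.49 in ctrl/LPS, 28.94 and 21.63 in IL-4 PT/LPS, and none without LPS (LPS change 4.74 ± 0.34, limma adjusted p = 2.85e-04). Kat6a, a histone acetyltransferase gene, had 12.41 and 19.26, and 19.5 and 16.5, in the same groups and none without LPS. Sec24d, by contrast, had 13.83 and 9.29 in ctrl/ctrl and 3.22 to 4.62 in the LPS lists, with no call.

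**Figure D5:**
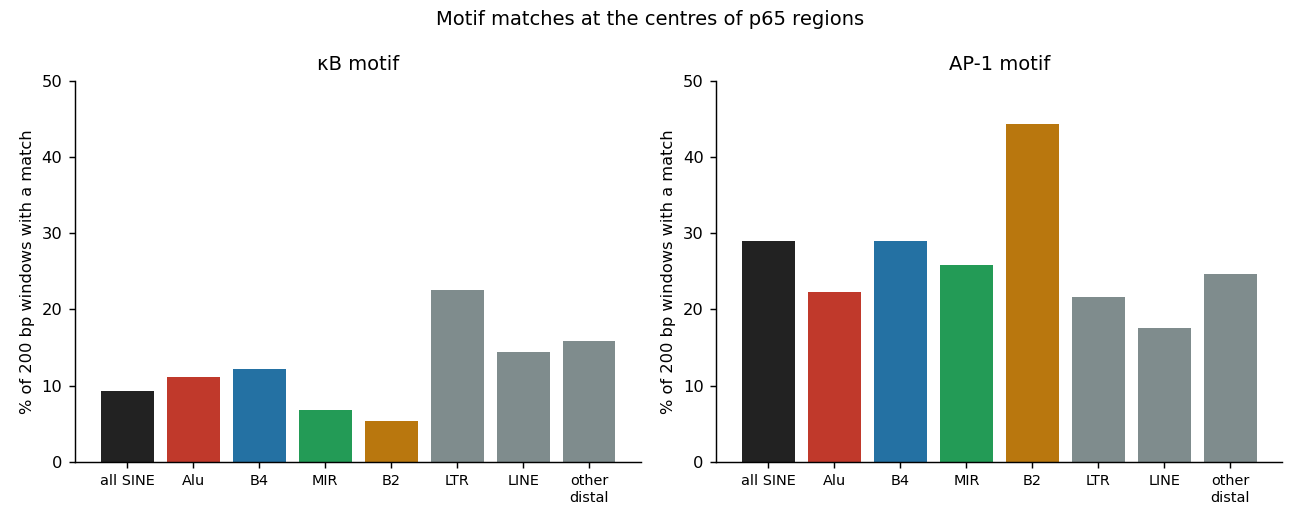
Percentage of 200 bp windows at region centers that hold the κB sequence (left) or the AP-1 sequence (right), for all SINE regions, 4 SINE families, LTR and LINE regions, and other distal regions. SINE regions stand at 9.24% for κB, below other distal regions at 15.9%, and B2 regions stand highest for AP-1 at 44.3%.

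SINE regions with AP-1 letters more often had higher p65 scores with LPS. Of the 329 with a match 50.5% were called higher in ctrl/LPS than in ctrl/ctrl, and of the 807 without a match 27.1%. Other distal regions had 43.9% and 27.2%, and each large family went the same way, with 48.5% and 18.6% for Alu, 46.6% and 32.1% for B4, 57.8% and 34.5% for MIR, and 45.9% and 17.2% for B2. κB letters did not separate SINE regions in this comparison (33.3% with and 33.9% without). In IL-4 PT/LPS against ctrl/LPS, 33.3% of SINE regions with κB letters and 20.8% without were higher, and other distal regions had 31.7% and 24.8%. These shares describe the regions, which are not replicates, and were not tested.

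Letters of the B box, GTTCNANNC, were found at 14.0% of SINE regions and 5.06% of other distal regions, with 23.6% in Alu and 16.8% in B2. The B1_Mm, B1_Mus1 and B1_Mus2 regions had 47.5%. The PU.1 letters GAGGAAGT occurred at 6.78% of SINE regions and 8.57% of other distal regions, at 11.2% of MIR regions and at none of the 59 B1_Mm, B1_Mus1 and B1_Mus2 regions.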

How the data were processed

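Peak lists of 56 ChIP-seq samples for 9 antibodies were used, 8 of them for p65. The authors aligned reads to mm10 with BWA 0.7.10 (default settings, no mapping-quality filter stated), called peaks per sample with MACS2 2.0.10, took out blacklisted regions and used HOMER 4.2 for annotation. Versions are from the submitters' processing notes. The deposited peak score is on a −log10 scale, of p or q (not stated, and read from the numbers). For H3K27Ac, the deposited signal counts normalized tags in HOMER regions, and only positions were used. No reads were used, so depth is unknown.

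Overlapping peaks were merged (at least 1 bp), the highest score per region and list was put on a log2 scale, and each list was centred on the median of regions with a peak in all 8 lists. Missing peaks then received the lowest centred score. The groups were fitted with limma 3.58.1 (R 4.3.3), with Benjamini-Hochberg adjustment over 37564 regions and a threshold of 0.05. The fit was tested on simulated data with noise in every value and no missing peaks. That test does not cover calls that rest on the floor. The design had missing peaks filled at the lowest score, and filling before centring is given as an alternative. Shares were compared with exact permutation tests over samples (Python 3.11.15, SciPy 1.17.1). Motifs were read from GRCm38 with pysam 0.24.0, in 37556 regions.

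Named regions were the 6 largest called changes in each direction, without overlap of replicates, for ctrl/LPS against ctrl/ctrl and IL-4 PT/LPS against ctrl/LPS, the 10 with the highest mean score, and those annotated to genes of the lists. Gene names are the files' nearest start sites. Members and lists were chosen with earlier results of these data known. Alternatives were another floor, scaling, stricter peaks or regions, unadjusted p, a replicate block and leaving out each sample.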

Additional observations from a re-analysis of the deposited data

Results flagged for a closer look

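The LPS change of p65 differed with IL-4 pretreatment at 281 SINE regions by limma's interaction term, and 24 of the named regions were among them. Groups of 2 samples are too small to look for a sample far from the others. All values below are differences between the log2 LPS changes with and without pretreatment, and no cause was tested. Of the 24, 11 had peaks only in the 2 samples of 1 group and entered through it, so the direction of their difference was fixed by the selection. They are 4930539M17Rik, Maml3, Snx8, Flt3, Tgm2, Arg1, Tlr4, Ms4a6c, B3galt2, Tmbim6 and Srcrb4d. Cacng2 and Gm9961 had 1 further peak but also entered only through 1 group.

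At 11 regions the LPS change was larger in pretreated cells. The difference was 6.14 at Cacng2, where a single IL-4 PT/LPS sample had a peak, 4.55 at 4930539M17Rik, 4.22 at Maml3 and 4.17 at Snx8. It was 3.51 at Naa20 and 2.71 at Etl4, where only ctrl/LPS lacked a peak. Weaker regions seen in IL-4 PT/LPS alone gave 2.82 (Flt3), 2.40 (Tgm2), 2.33 (Arg1) and 1.92 (Tlr4). The difference was 1.20 at Ccl5.

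The high-scoring regions at Phf15 (1.23) and Eya3 (1.02), with peaks in all 8 lists, also had a larger LPS change in pretreated cells.

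At the other 11 regions it was smaller. The difference was -4.19 at Wasf2, -3.76 at B4galt5, -3.39 at Tnip1 and -3.01 at Notch2, which had p65 peaks in IL-4 PT/ctrl but none in ctrl/ctrl. Regions seen in ctrl/LPS alone or nearly so gave -3.68 (Ms4a6c), -3.60 (B3galt2), -3.30 (Tmbim6), -3.12 (Gm9961) and -2.83 (Srcrb4d). Glg1 (-2.26) and Thada (-1.33) had peaks in both LPS groups.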

How the results depend on the processing

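Counts are given as SINE regions higher and lower, in the order ctrl/LPS against ctrl/ctrl, IL-4 PT/LPS against ctrl/LPS, IL-4 PT/ctrl against ctrl/ctrl and IL-4 PT/LPS against IL-4 PT/ctrl, where they moved by over 1.5 times. Quantile normalization gave 155 and 202, 136 and 91, and, in the last comparison, 191 and 198. No centring left 35 and 8 lower in the first and last comparison. The upper 50% of peaks by score (542 regions) gave 187 and 38, 135 and 31, 23 and 11, and 268 and 26, with 167 interactions. The 515 regions annotated to a SINE in every list gave 152 and 29, 31 lower, 17 and 11, and 299 and 19. Its 180 higher in the second comparison were 35.0% of the set (24.2% of all regions), and 31.8% had a larger interaction (20.9% of all), so both shares turned from below to above those of all regions. This set is weighted toward regions seen in only 2 lists, many with a direction fixed by the selection, so the turn cannot be read as a trait of SINEs. Regions in 4 or more lists gave 42 and 10 in the second comparison, 334 higher in the last and 64 interactions. An unadjusted threshold gave 83 and 46 lower in the middle 2, and a floor of 4 times the lowest score 173 interactions. Of the alternatives chosen after seeing the data, filling before centring gave 216 lower in the first and 17 lower with IL-4 alone, and regions in all 8 lists 25 and 42, 0 and 0, 4 and 4, and 15 and 33, with 0 interactions.

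Leaving out 1 sample at a time gave 350 to 400 and 46 to 71, 225 to 304 and 43 to 87, 51 to 84 and 24 to 44, and 463 to 543 and 35 to 57, with 242 to 353 interactions. It gave a difference in SINE share of 0.0179 to 0.169, a score ratio of -0.121 to -0.0740, an RNAPII-pS5 difference of 0.315 to 0.914 and an LPS difference in RNAPII-pS5 of -2.41 to -0.0293.

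The difference in SINE share reversed with the upper 50% of peaks (-0.262) and among intronic and intergenic peaks (-0.0595). The score ratio passed with the upper 50% of peaks (-0.0824, exact p = 0.0234). The RNAPII-pS5 difference reversed with its upper 50% of peaks (-0.418) and in regions in 4 or more lists (-3.33), was 2.16 with RNAPII-pS2, and the LPS difference was 13.1 with RNAPII-pS2. κB shares were 12.1% in 300 bp and 7.48% with GGGNNTTTC. The Ccl24 region's LPS change of -0.19 became 0.34 without centring, 1.28 without ctrl/ctrl replicate 1 and 1.09 without ctrl/LPS replicate 2 (-1.66 to 1.28 leaving out each sample). Of 34 named regions with a call, 12 lost it in 1 or more alternatives (Arg1, Tgm2, Tlr4, Pim1, Gabbr2, Pparg, Fnbp1, Lrrk1, Cacng2, Il18, Gm8817 and 4921509O07Rik). The cause of these changes was not tested.

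Replicate deviations were not correlated between groups (-0.048 to 0.009), so the numbers do not pair samples. A replicate block gave 366 and 60, 227 and 47, 53 and 26, and 524 and 51, with 254 interactions.

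Unknown read depth limits the scores, and 2 samples per group limit the tests.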
